A study of Mus musculus with 6 samples.

Results

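The interferon-induced transmembrane (IFITM) genes Ifitm1, Ifitm2, Ifitm3 and Ifitm6 were followed in mouse bone marrow RNA. The 4 members were chosen by gene symbol and are 4 of the 47561 entries in each file. Marrow came from 3 libraries of mice kept under chronic unpredicted mild stress (CUMS) for 4 weeks, a procedure of changing mild stressors used to model depression, and from 3 libraries of negative control mice. The title of the series names vasopressin and myelopoiesis, and the comparison asks which marrow transcripts differed after the stress. No allele, transgene or drug is named for either group. Strain, sex, age and whether each library came from 1 animal were not given in the sources used here, so the p-values speak only to how far these 6 libraries spread, which may be technical. The neutrophil marker S100a8 lay at 17803 to 25729 FPKM and the haemoglobin gene Hbb-bs at 46514 to 70096 FPKM over the 6 libraries, high levels of the kind known for marrow.

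IFITM proteins are small membrane proteins that carry a CD225 domain. They sit in the plasma membrane and in endosomes and lysosomes, where they hinder the fusion of enveloped viruses with the cell. Ifitm3 is the best studied of them in this role and acts mainly in endosomes, while human IFITM1 is found more at the cell surface. Interferons induce several of the genes through STAT and IRF factors that bind interferon-stimulated response elements (ISRE), and stem cells also express some of them without interferon.

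The 4 genes lie within 62.1 kb of chromosome 7 (GRCm38, the assembly also called mm10). Ifitm2 spans chr7:140954837-140959686 on the minus strand, Ifitm1 chr7:140967429-140969827 on the plus strand, Ifitm3 chr7:141009590-141010744 on the minus strand and Ifitm6 chr7:141015812-141016892 on the minus strand. Their promoter windows were taken from RefSeq (GRCm38.p6) and run from 250 bases before to 50 bases from the annotated start. The letters are given to compare the members, and a link between them and the levels was not tested. Capitals mark matches to the ISRE core, read here as 2 copies of GAAA separated by any 2 bases and searched on both strands. The windows are chr7:141010695-141010994 for Ifitm3, chr7:140955912-140956211 for Ifitm2, chr7:140967826-140968125 for Ifitm1 and chr7:141016843-141017142 for Ifitm6, each written 5′ to 3′ along the strand of its gene.
Ifitm3: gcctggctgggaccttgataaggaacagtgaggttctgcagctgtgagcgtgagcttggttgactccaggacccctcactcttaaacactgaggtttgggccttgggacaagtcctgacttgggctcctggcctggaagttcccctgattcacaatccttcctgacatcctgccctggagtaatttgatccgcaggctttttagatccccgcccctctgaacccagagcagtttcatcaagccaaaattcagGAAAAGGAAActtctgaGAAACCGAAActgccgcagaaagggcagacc
Ifitm2: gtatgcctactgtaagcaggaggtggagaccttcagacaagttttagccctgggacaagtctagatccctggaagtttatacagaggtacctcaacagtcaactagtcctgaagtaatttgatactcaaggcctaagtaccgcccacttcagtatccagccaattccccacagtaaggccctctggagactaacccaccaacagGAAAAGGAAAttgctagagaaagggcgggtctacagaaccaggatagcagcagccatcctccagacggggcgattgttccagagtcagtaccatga
Ifitm1: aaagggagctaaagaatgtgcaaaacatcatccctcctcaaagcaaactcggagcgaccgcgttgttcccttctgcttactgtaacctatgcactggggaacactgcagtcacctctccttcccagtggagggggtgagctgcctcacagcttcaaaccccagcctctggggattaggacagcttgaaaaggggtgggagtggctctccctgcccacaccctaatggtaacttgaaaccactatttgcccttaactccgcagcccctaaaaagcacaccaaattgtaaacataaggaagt
Ifitm6: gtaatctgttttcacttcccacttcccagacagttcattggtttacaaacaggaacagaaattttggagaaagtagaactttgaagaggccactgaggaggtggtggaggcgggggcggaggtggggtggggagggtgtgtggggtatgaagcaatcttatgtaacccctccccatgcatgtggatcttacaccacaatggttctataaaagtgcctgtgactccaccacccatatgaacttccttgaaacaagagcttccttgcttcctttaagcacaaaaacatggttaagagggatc

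The Ifitm3 window held 2 matches to the ISRE core, GAAAAGGAAA at bases 3 to 12 and GAAACCGAAA at bases 20 to 29 counted from 1 at the start site (chr7:141010733-141010742 and chr7:141010716-141010725). The Ifitm2 window held 1, GAAAAGGAAA, 46 to 37 bases before the start site (chr7:140955998-140956007). The windows of Ifitm1 and Ifitm6 held none. The windows of Ifitm1 and Ifitm2 lie at starts inside the gene spans given above, and other annotated starts were not searched. Of all 32851 RefSeq windows of this length 3.44% held at least 1 match and 0.225% held 2 or more, and among the interferon-stimulated genes used below 6 of the 11 with a window held one. The letters TTCNNNGAA, the core of the gamma-activated site, matched once in Ifitm3 (TTCTGAGAA, overlapping the second ISRE match) and once in Ifitm6 (TTCCTTGAA), against 8.30% of all windows. A match describes the letters and was not tested as a binding site.

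The coding sequences of Ifitm1, Ifitm2 and Ifitm3 were 80.9% to 82.1% identical to each other in the GENCODE M21 transcripts, and that of Ifitm6 was 65.7% to 68.8% identical to them. Only short stretches were the same base for base. Of the 629 stretches of 50 bases in the Ifitm3 transcript, 20 (3.18%) also occurred in Ifitm2 and 15 (2.38%) in Ifitm1, while Ifitm6 shared none with any of the 3. A read lying wholly within a shared stretch cannot be assigned with certainty, but a full read of 151 bp is longer than these stretches of 50 bases. GENCODE also holds a model, Gm45717, that shares exon bases with Ifitm2 and is not an entry of the deposited table.

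In CUMS marrow Ifitm3 fell to 55.2% of its control mean, and no change was called for the other 3 genes. Values are FPKM, fragment counts scaled to transcript length and sequencing depth, as deposited. All 4 genes passed the filter of at least 1 FPKM in at least 3 libraries, and each change is the CUMS mean minus the control mean of log2(FPKM + 1). It was tested by limma over all 12302 genes that passed, and a gene was called at a Benjamini-Hochberg p under 0.05. Of those genes 1.07% were called, 0.455% as lower and 0.618% as higher in CUMS, and 1898 had an unadjusted p under 0.05.

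Ifitm3 had 233.6, 214.6 and 224.3 FPKM in the CUMS libraries of replicates 1, 2 and 3, against 457.9, 371.2 and 389.2 FPKM in the control libraries of replicates 1, 2 and 3. Every CUMS library lay below every control library, as for 12.1% of all tested genes, with a wide gap between the groups. The means were 224 ± 9.49 FPKM in CUMS and 406 ± 45.8 FPKM in control (SD, n = 3 each). The log2 change was −0.85 (SE 0.111, 95% interval −1.11 to −0.59, limma adjusted p = 0.0179), the 35th lowest of the 12302. The exact 2-sided permutation test of the 3 against 3 values gave p = 0.1, the smallest it can give.

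Ifitm2 had 233.9, 196.0 and 199.5 FPKM in CUMS, against 277.5, 209.4 and 227.4 FPKM in control. The groups overlapped, since CUMS replicate 1 exceeded control replicates 2 and 3. The means were 210 ± 20.9 FPKM in CUMS and 238 ± 35.3 FPKM in control (SD, n = 3 each), with a log2 change of −0.18 (SE 0.134, 95% interval −0.49 to 0.13, limma adjusted p = 0.593, exact permutation p = 0.3).

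Ifitm6, the most abundant of the 4, had 732.3, 712.6 and 670.4 FPKM in CUMS, against 772.4, 562.4 and 567.2 FPKM in control. The CUMS libraries lay between the lone high control library, replicate 1, and the other control libraries. The means were 705 ± 31.6 FPKM in CUMS and 634 ± 120 FPKM in control (SD, n = 3 each), with a log2 change of 0.17 (SE 0.146, 95% interval −0.17 to 0.51, limma adjusted p = 0.644, exact permutation p = 0.4).

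Ifitm1 had 43.33, 42.34 and 43.87 FPKM in CUMS, against 44.31, 42.83 and 42.51 FPKM in control. The whole range over the 6 libraries was 4.56% of their mean, against 77.2% for Ifitm3. The means were 43.2 ± 0.773 FPKM in CUMS and 43.2 ± 0.960 FPKM in control (SD, n = 3 each), and the log2 change was −0.0012 (SE 0.0797, 95% interval −0.19 to 0.18, limma adjusted p = 0.996, exact permutation p = 1). Within that interval a small difference was not detectable with 3 libraries per group.

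**Figure D1:**
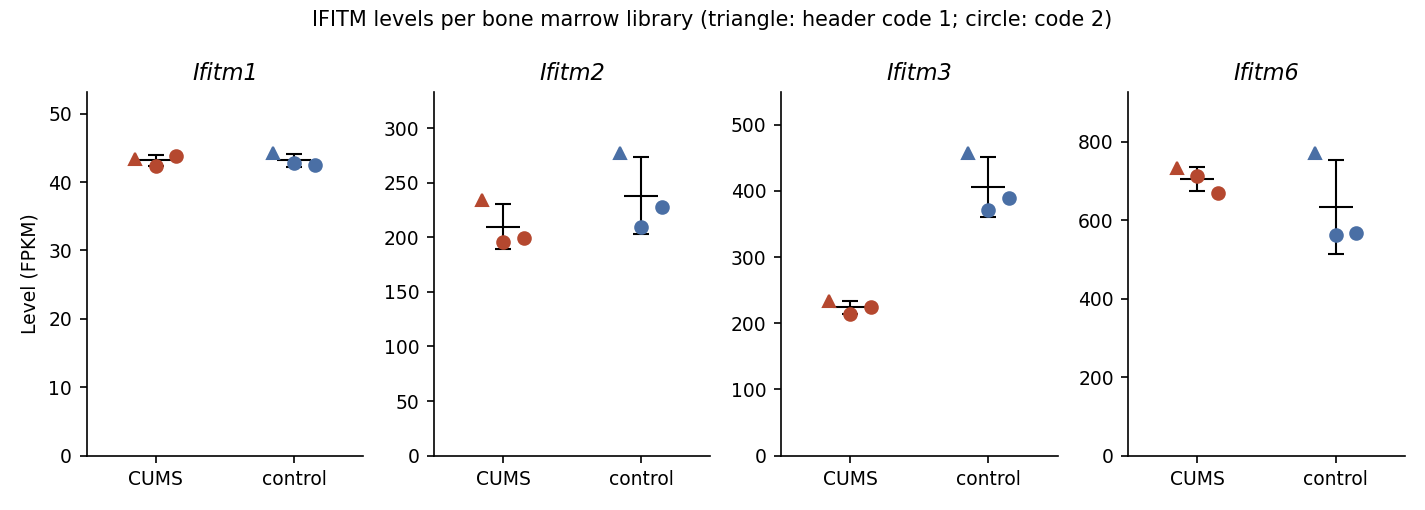
Level of each IFITM gene in FPKM (y axis, from 0, a separate scale per gene) in the 3 CUMS libraries and the 3 control libraries; the bar is the mean and the whiskers the SD, triangles are libraries with header code 1 and circles those with code 2. Ifitm3 was the 1 gene of the 4 without overlap, at 214.6 to 233.6 FPKM in CUMS and 371.2 to 457.9 FPKM in control.

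**Figure D2:**
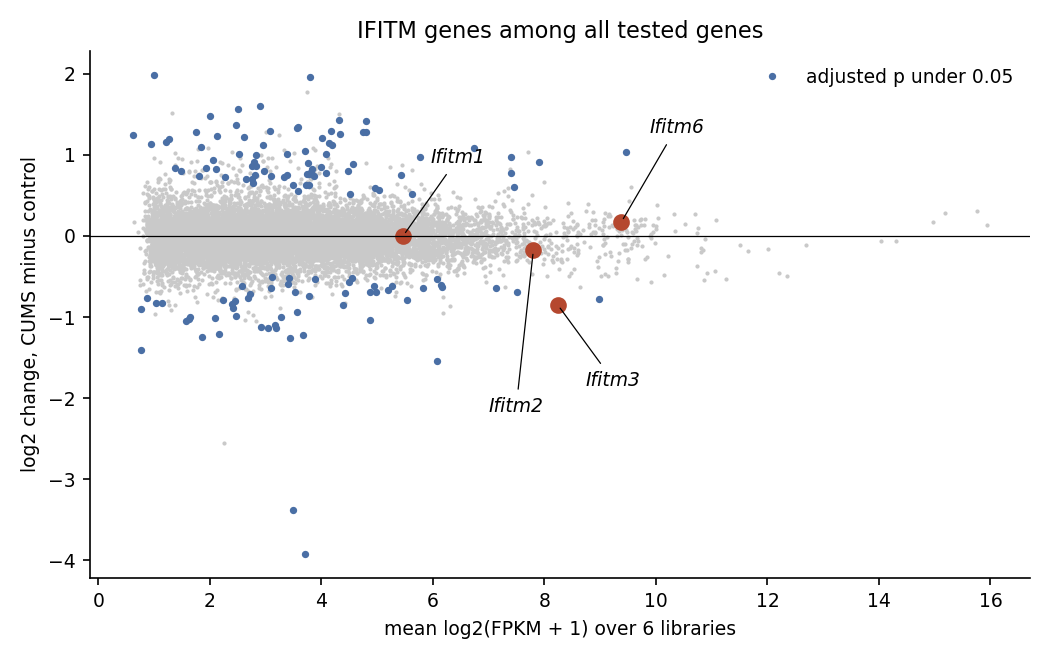
Log2 change, CUMS minus control, on log2(FPKM + 1) (y axis) against the mean log2(FPKM + 1) over the 6 libraries (x axis) for the 12302 tested genes; blue points had an adjusted p under 0.05 and the 4 IFITM genes are marked in red. Ifitm3 lay at −0.85 among abundant genes, while Ifitm1, Ifitm2 and Ifitm6 lay within the cloud of genes that were not called.

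The file headers carry a code, 1 in replicate 1 of each group and 2 in the remaining 4. No source used here explains it, and 3747 genes differed by it at an adjusted p under 0.05. With group in the model, Ifitm2 was lower by 0.29 on the log2 scale in code 2 than in code 1 (log2 difference −0.29, limma adjusted p = 0.0130), and the difference was −0.27 for Ifitm6, −0.18 for Ifitm3 and −0.03 for Ifitm1 (adjusted p = 0.0547, 0.0802 and 0.731). Within the code, Ifitm3 changed by −0.97 in the single pair of code 1 and by −0.79 in the 4 libraries of code 2. Ifitm2 changed by −0.25 and −0.14, and Ifitm1 by −0.03 and 0.01. Ifitm6 changed by −0.08 in the pair of code 1 and by 0.29 in code 2, where the 2 CUMS libraries lay above the 2 control libraries (limma adjusted p = 0.0154 in those 4 libraries alone, where 17.7% of all tested genes were called, 8.82% as higher and 8.84% as lower). The difference between the codes was not tested, since code 1 holds 1 library per group.

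The call for Ifitm3 depended on single libraries when the code was left out of the model. Its limma adjusted p was 0.0458 without CUMS replicate 1 and 0.0136 without control replicate 1, but 0.122 without CUMS replicate 2, 0.109 without CUMS replicate 3, 0.0557 without control replicate 2 and 0.0985 without control replicate 3. Those 6 fits gave log2 changes of −0.91 to −0.76 and divide the code unevenly between the groups. With the code as a term, the adjusted p was 0.00044 in all 6 libraries and 0.0007 to 0.00695 when each library was left out in turn, a set of fits chosen after seeing the data. With the code as a term 13.4% of all tested genes were called, 6.06% as higher and 7.31% as lower. Leaving out either library of code 1 in those fits leaves the comparison within code 2.

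**Figure D3:**
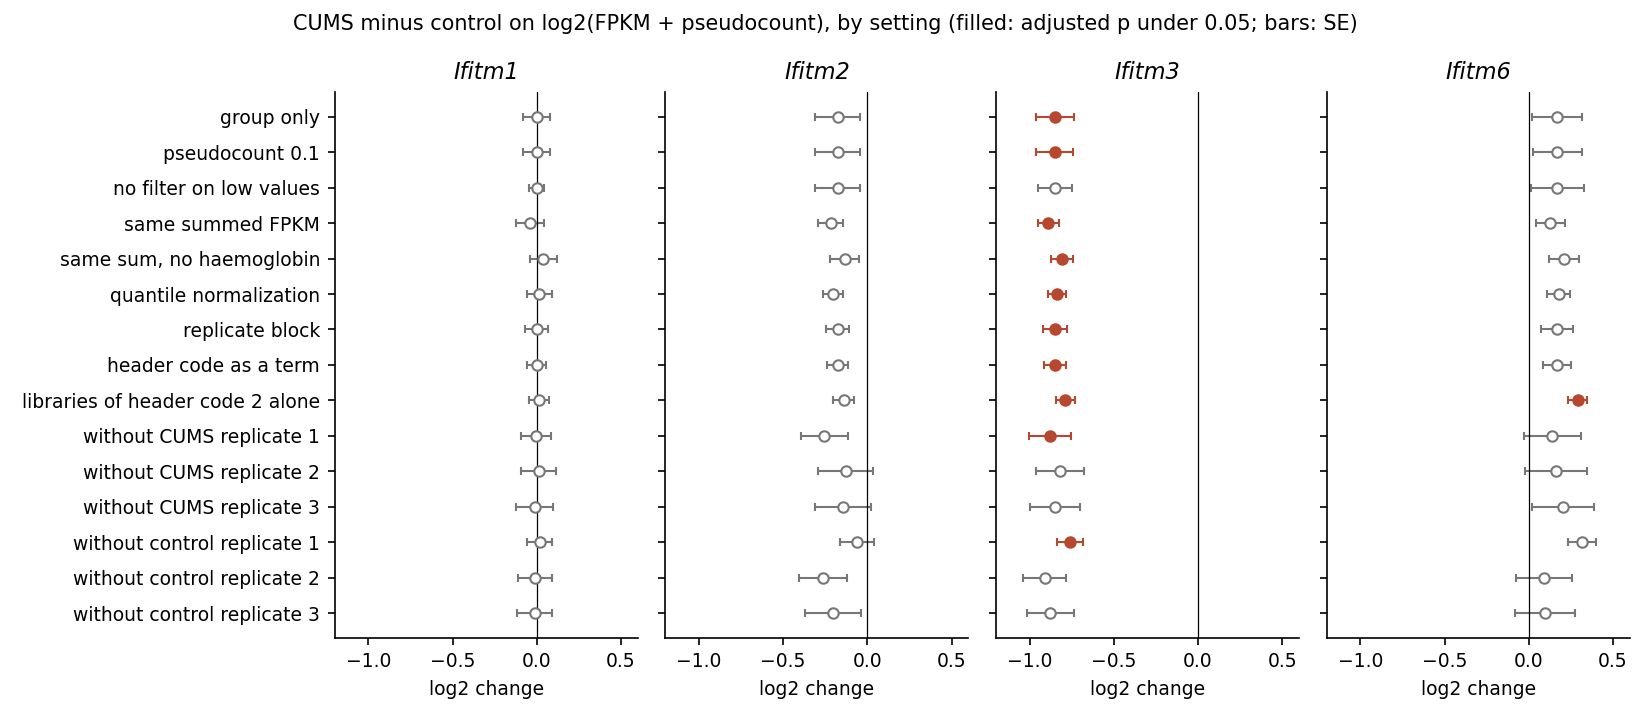
Log2 change, CUMS minus control (x axis), of each IFITM gene under each setting of the analysis (y axis); bars are the SE, and filled points had an adjusted p under 0.05. Ifitm3 stayed between −0.91 and −0.76 in every setting drawn, while Ifitm6 was called in the 4 libraries of code 2 alone, at 0.29.

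The order of the mean levels, compared per length in FPKM, was the same in both groups, with Ifitm3 and Ifitm2 closer together in CUMS. Ifitm6 was highest in every library, at rank 69 to 100 among all entries of a library, and Ifitm1 lowest, at rank 1428 to 1535. In CUMS replicate 1 Ifitm3 and Ifitm2 were level, at 233.6 and 233.9 FPKM. Ifitm3 lay above Ifitm2 in CUMS replicate 2 (214.6 and 196.0 FPKM) and in CUMS replicate 3 (224.3 and 199.5 FPKM). The CUMS means were 224 ± 9.49 and 210 ± 20.9 FPKM, and the difference between the genes within a group was not tested. In control Ifitm3 lay above Ifitm2 in each library (406 ± 45.8 and 238 ± 35.3 FPKM).

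The ratio of Ifitm2 to Ifitm3 was 1.00, 0.913 and 0.890 in the CUMS libraries and 0.606, 0.564 and 0.584 in the control libraries, without overlap and with narrow spread in both groups. The ratio of Ifitm3 to Ifitm6 was 0.319, 0.301 and 0.335 in CUMS and 0.593, 0.660 and 0.686 in control, a difference of −1.02 between the log2 changes of the genes. The ratio of Ifitm1 to Ifitm3 was 0.186, 0.197 and 0.196 in CUMS and 0.0968, 0.115 and 0.109 in control. All 6 pairs of genes were compared by an exact 2-sided permutation test of the log2 ratios. The 3 pairs with Ifitm3 and the pair of Ifitm2 and Ifitm6 had groups that did not overlap (exact permutation p = 0.1, the smallest possible, and 0.15 adjusted over the 6 pairs). No pair can pass 0.05 with 3 against 3 libraries. The 3 pairs with Ifitm3 share its values. Of all tested single genes 22.1% did not overlap in either direction, and the share among other gene pairs was not computed. Ifitm2 and Ifitm6 differed by −0.34 in their log2 changes, Ifitm1 and Ifitm2 by 0.18 (exact p = 0.3) and Ifitm1 and Ifitm6 by −0.17 (exact p = 0.4).

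Ifitm3 made up 19.0 ± 0.665% of the summed FPKM of the 4 genes in CUMS and 30.8 ± 1.19% in control (SD, n = 3 each). Ifitm6 made up 59.7 ± 1.29% in CUMS and 47.8 ± 1.79% in control. The share of Ifitm2 was 16.8% to 18.8% in CUMS and 17.7% to 18.6% in control, and that of Ifitm1 3.66 ± 0.186% in CUMS and 3.31 ± 0.402% in control. The shares sum to the whole, so that a lower share of 1 gene raises the others. The summed level of the 4 genes was 1243, 1166 and 1138 FPKM in CUMS and 1552, 1186 and 1226 FPKM in control, and the groups overlapped (exact permutation p = 0.3).

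**Figure D4:**
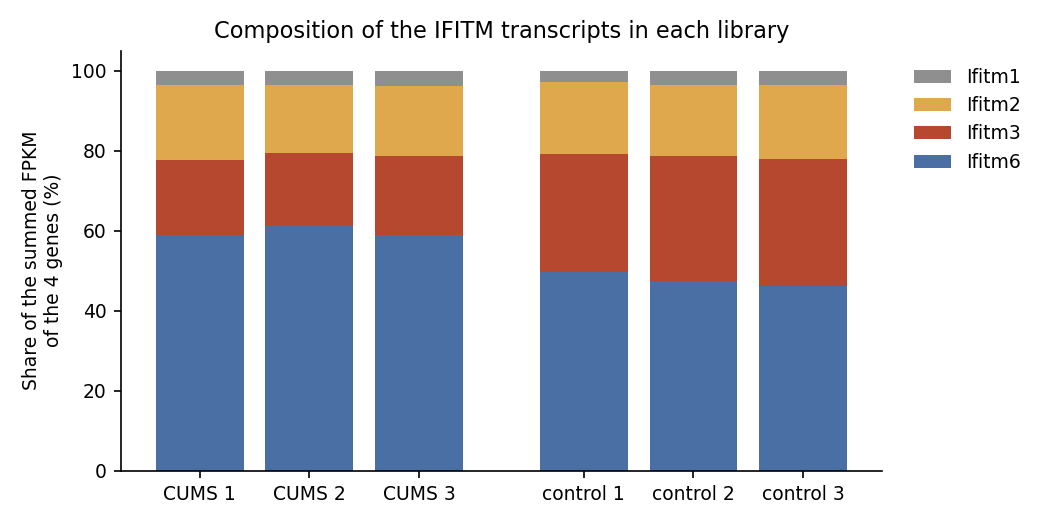
Share of each IFITM gene in the summed FPKM of the 4 genes (y axis, percent) in each CUMS and control library (x axis). The Ifitm3 band took 18.4% to 19.7% in CUMS and 29.5% to 31.7% in control, and the Ifitm6 band 58.9% to 61.1% and 46.2% to 49.8%.

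The other Ifitm genes were scarce. Ifitm5, the bone-restricted member known from osteoblasts (chr7:140948958-140950243), had 0.474, 0.250 and 0.530 FPKM in CUMS and 0.319, 1.21 and 1.15 FPKM in control and did not pass the filter. Ifitm7 on chromosome 16 lay between 0.0338 and 0.263 FPKM and did not pass either. Ifitm10 on chromosome 7 had 2.59 ± 0.755 FPKM in CUMS and 2.68 ± 0.487 FPKM in control (SD, n = 3 each; log2 change −0.05, limma adjusted p = 0.934). None of the 7 other genes with a CD225 domain reached 1 FPKM in any library, among them Prrt2 and Tmem91, and Syndig1 was listed at 0 in all 6.

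None of the genes around the members was called. The pseudogene Gm7514 and the lncRNA Gm33504 lie between Ifitm1 and Ifitm3. Gm7514 had 1.14 to 1.25 FPKM in CUMS and 1.41 to 1.87 FPKM in control, and Gm33504 2.30 to 3.06 FPKM in CUMS and 3.28 to 4.99 FPKM in control, with log2 changes of −0.26 and −0.39 (limma adjusted p = 0.353 and 0.306). The CUMS libraries lay below the control libraries for both, as they did for 12.1% of all tested genes. On the side of Ifitm2, the log2 change was −0.15 for Pgghg, 7.17 kb away, and 0.02 for Psmd13, 56.2 kb away (adjusted p = 0.576 and 0.973). On the side of Ifitm6, Pkp3, Sigirr and Ptdss2 lie 61.3 to 114 kb away and differed by −0.16, −0.24 and 0.21 (adjusted p = 0.705, 0.335 and 0.335).

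Of 18 interferon-stimulated genes 17 were tested, 9 fell in CUMS and none rose, where 0.455% of all tested genes were called lower, and the median log2 change was −0.84, against −0.0017 over all tested genes (−0.95 in the pair of code 1 and −0.81 in code 2). All 17 had values towards lower, as did 6186 of all 12302 tested genes. For 16 of the 17 the CUMS libraries lay below the control libraries, against 12.1% of all tested genes. The log2 change was −1.54 for Ifi27l2a, an interferon-inducible gene, −1.26 for Oasl2, an oligoadenylate synthetase-like protein, −1.22 for Oas1a, which senses double-stranded RNA, and −1.12 for Usp18, which restrains the interferon receptor (limma adjusted p = 0.00601, 0.00551, 0.00419 and 0.00419). Cmpk2, a mitochondrial nucleotide kinase, had 21.5 ± 0.843 FPKM in CUMS and 28.7 ± 1.47 FPKM in control (adjusted p = 0.0815; the replicate block gave 0.0219). With the replicate block 15 of the 17 fell, where 7.80% of all tested genes were called, 4.31% as lower and 3.49% as higher. The number that fell was 4 to 10 when 1 library was left out.

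Among 15 genes of the interferon receptors and their signalling chain 3 fell, Irf7 and Irf9 among them, and none rose, against 0.455% of all tested genes called lower (median log2 change −0.31). The values of 12 lay towards lower, as did those of 6186 of all 12302 tested genes. Those of Ifngr1, Jak1 and Jak2 lay towards higher, with log2 changes of 0.13, 0.08 and 0.20. Irf7, which amplifies the interferon response, had 19.7 ± 2.71 FPKM in CUMS and 41.1 ± 0.911 FPKM in control, and Irf9, the DNA-binding part of the complex that binds ISREs, 22.1 ± 0.493 and 36.2 ± 2.76 FPKM (SD, n = 3 each; limma adjusted p = 0.00911 and 0.0182). Irf1, an interferon-induced activator, differed by −0.52 (adjusted p = 0.0710; the replicate block gave 0.0136). The receptor chains had log2 changes of −0.18 for Ifnar1, −0.32 for Ifnar2, 0.13 for Ifngr1 and −0.31 for Ifngr2, none of which was called (adjusted p = 0.558, 0.118, 0.636 and 0.214). With the replicate block, where 4.31% of all tested genes were called lower, 7 of the 15 fell, Ifnar2 and Ifngr2 among them (adjusted p = 0.0376 and 0.0437). The number was 0 to 3 when 1 library was left out.

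Of 11 other antiviral proteins of cell membranes 10 were tested, 1 fell and none rose, against 0.455% of all tested genes called lower (median log2 change −0.22). Rsad2, which blocks virus replication at lipid membranes, fell to 56.4 ± 4.83 FPKM in CUMS, against 86.3 ± 2.22 FPKM in control (adjusted p = 0.0309). Bst2, which tethers budding virus at the surface, had 46.1 ± 2.22 FPKM in CUMS and 67.9 ± 5.95 FPKM in control (SD, n = 3 each; adjusted p = 0.0514; the replicate block gave 0.0168), and 2 of the 10 fell with the block, against 4.31% of all tested genes. The log2 change was −0.26 for Cd74, the invariant chain, and −0.36 for Adap2 (adjusted p = 0.286 and 0.305). The cholesterol hydroxylase Ch25h was listed at 0 in every library. The number that fell was 0 to 2 when 1 library was left out.

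Genes for enzymes and partners of IFITM proteins gave no call. All 12 were tested and the median log2 change was 0.04; 132 of all 12302 tested genes were called. Nedd4, a ubiquitin ligase of IFITM3, had a log2 change of 0.29, Fyn, a kinase that phosphorylates it, −0.24, and Cr2, the complement receptor of B cells, 0.28 (limma adjusted p = 0.185, 0.258 and 0.375). With the replicate block 1 of the 12 was called lower and none higher, against 4.31% lower and 3.49% higher of all tested genes. The palmitoyltransferase Zdhhc20 had a log2 change of 0.08 (adjusted p = 0.814).

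**Figure D5:**
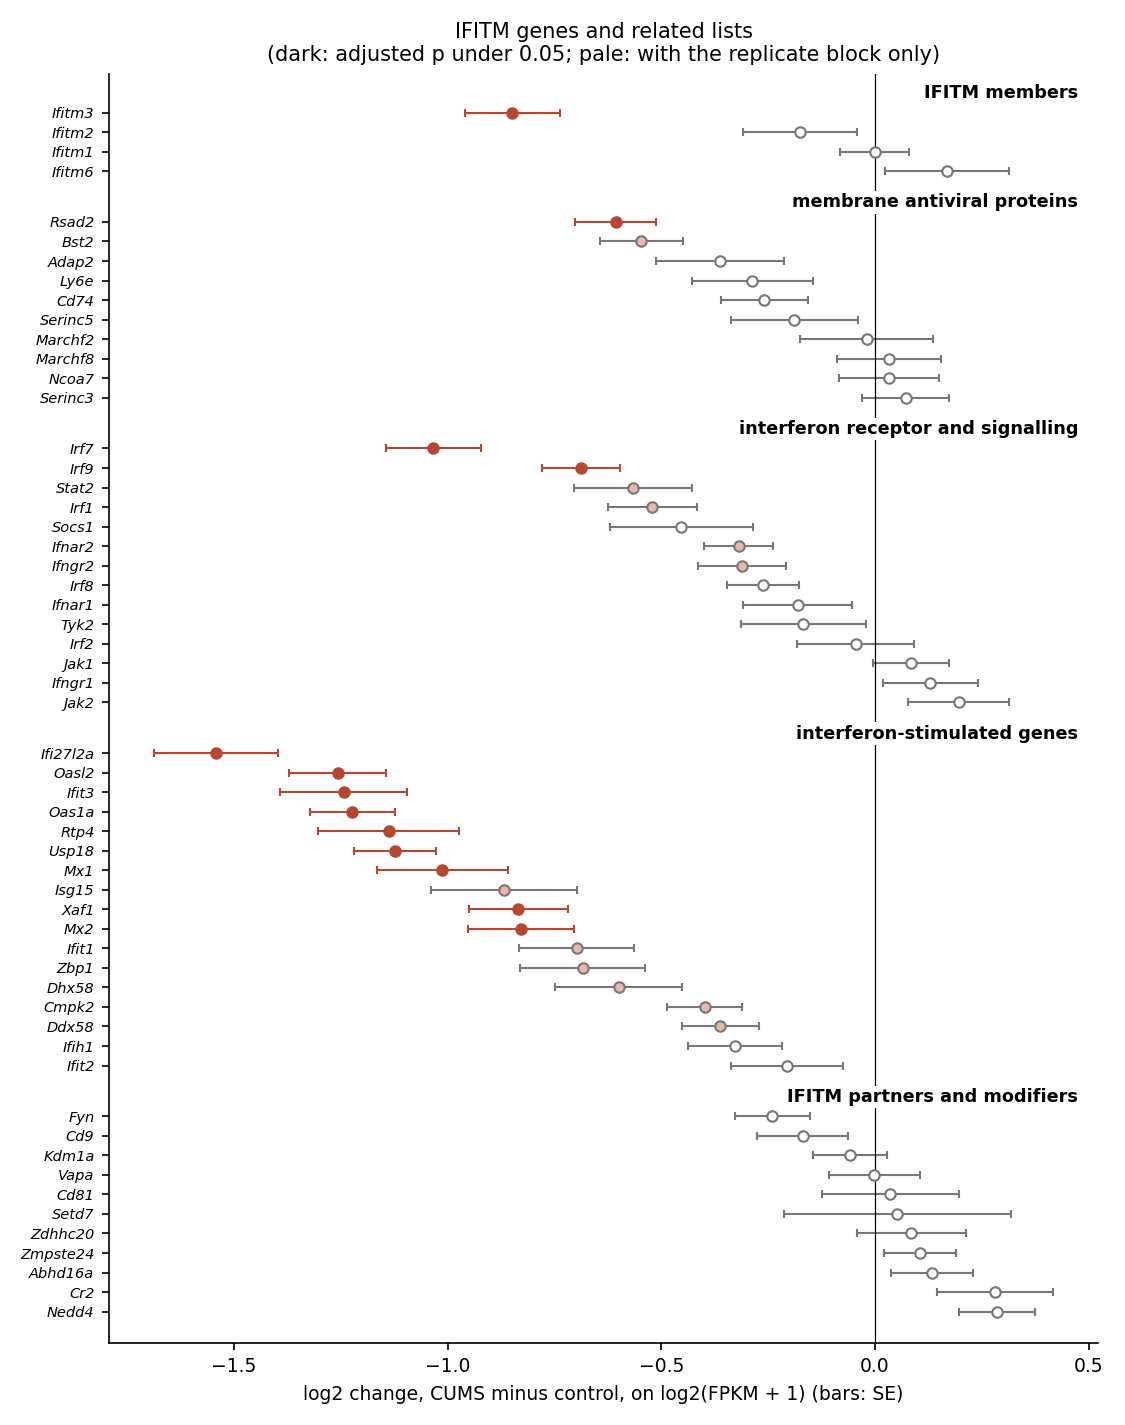
Log2 change, CUMS minus control, on log2(FPKM + 1) (x axis; bars are the SE) of the 4 IFITM genes and tested genes of related lists, 2 of which are not drawn (y axis); dark points had an adjusted p under 0.05, and pale points with the replicate block only. Ifitm3 lay at −0.85 near the median of the interferon-stimulated genes (−0.84), while Ifitm2, Ifitm1 and Ifitm6 lay between −0.18 and 0.17.

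Among the markers of marrow cell types Csf1r and Cx3cr1 were called lower and none higher, where 0.455% of all tested genes were called lower. In bulk RNA fewer cells of a type and less RNA per cell cannot be told apart. Of 7 classical monocyte markers 1 was called lower, Csf1r (log2 change −0.62, limma adjusted p = 0.0338). Their summed level was 1026 to 1074 FPKM in CUMS and 1025 to 1228 FPKM in control. Ly6c2 made up more of that sum than any other of the 7, with 727 ± 49.3 FPKM in CUMS and 708 ± 123 FPKM in control (SD, n = 3 each). The log2 change was negative for 6 of the 7. The CUMS libraries lay below the control libraries for 4, Csf1r, Ccr2, Ms4a4c and Ms4a6c, against 12.1% of all tested genes. Of 5 tested nonclassical monocyte markers 1 was called lower, Cx3cr1 (log2 change −1.10, adjusted p = 0.00817), and the sum over the 6 listed was 87.6 to 103 FPKM in CUMS and 87.1 to 94.3 FPKM in control. Spn made up more of that sum than any other of the 6. It had 57.3 ± 1.82 FPKM in CUMS and 51.8 ± 2.45 FPKM in control (SD, n = 3 each). Ace, Treml4 and Cd300e stood at 49.7%, 64.4% and 46.8% of their control means. The groups did not overlap for any of these 4 genes, as for 22.1% of all tested genes in either direction. Cd300e did not pass the filter and was not tested. With the replicate block 3 of the 7 and 3 of the 5 were called lower and 1 of the 5 higher, Nr4a1, which is also an immediate-early gene, against 4.31% lower and 3.49% higher of all tested genes. Macrophage markers summed to 126 to 141 FPKM in CUMS and 142 to 181 FPKM in control, and B cell markers to 354 to 400 FPKM in CUMS and 420 to 495 FPKM in control, with no call in either list in the fit without the block and 2 of 7 and 1 of 6 lower with it. Neutrophil markers summed to 43065 to 44564 FPKM in CUMS and 40080 to 56486 FPKM in control, with no call among 9 (1 lower with the block). S100a8 and S100a9 made up more of that sum than any other of the 9. Mmp9, the 1 called with the block, stood at 70.6% of its control mean, without overlap. No marker in these 5 lists was at 0 in every library. Their part in the change of Ifitm3 was not tested.

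Markers of the other types gave no call without the block. Basophil and mast cell markers summed to 273 to 317 FPKM in CUMS and 271 to 357 FPKM in control, T and NK cell markers to 89.4 to 108 and 75.2 to 99.7 FPKM, and megakaryocyte markers to 80.5 to 91.9 and 74.8 to 91.7 FPKM. Stem and progenitor markers summed to 39.3 to 41.6 FPKM in CUMS and 35.2 to 36.4 FPKM in control, and endothelial and stromal markers to 79.0 to 85.4 and 61.6 to 65.9 FPKM. Of the endothelial and stromal markers, Cxcl12 and Col1a1 were called higher with the block, against 3.49% of all tested genes. Of the basophil and mast cell markers 1, Hdc, was called lower with the block, against 4.31% of all tested genes (72.8 ± 5.88 FPKM in CUMS and 98.3 ± 11.1 FPKM in control, SD, n = 3 each). Haemoglobin transcripts made up 31.7% to 35.2% of all FPKM in CUMS libraries and 28.8% to 29.2% in control libraries. After scaling every library to the same sum without them, the log2 change of Ifitm3 was −0.81 (adjusted p = 0.005), and that of Ifitm6 0.21 (adjusted p = 0.310).

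The genes with the most similar pattern over the 6 libraries were taken from the 6898 other tested genes with a mean log2(FPKM + 1) of at least 3, by Pearson's r of log2(FPKM + 1). The points share group and header code, and r over 6 libraries is a description only. For Ifitm3 they were Cmpk2, Plin2 and Cd300a (r = 0.9965, 0.9955 and 0.9936), with 28.2 FPKM of Plin2 in CUMS and 45.6 FPKM in control. For Ifitm2 they were Pglyrp1, Mapkapk5 and Slpi (0.9989, 0.9973 and 0.9966), for Ifitm6 Bccip, Atad1 and Mettl3 (0.9930, 0.9924 and 0.9918), and for Ifitm1 Dck, Pak1 and Gpat4 (0.9643, 0.9559 and 0.9557). With the header code regressed out they were Ifi27, Med28 and Xab2 for Ifitm3 (0.9990, 0.9987 and 0.9986), Lcn2, Mrfap1 and Mapkapk5 for Ifitm2 (0.9992, 0.9983 and 0.9980), LOC115487638, Tra2a and Hmgb1 for Ifitm6 (0.9992, 0.9979 and 0.9976) and, for Ifitm1, Dck and Ppp6c among them (0.9875 and 0.9767). Among the members themselves r was 0.69 between Ifitm2 and Ifitm3, 0.94 with the code regressed out, and −0.28 between Ifitm3 and Ifitm6, −0.62 with the code regressed out.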

How the data were processed

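Total marrow RNA was sequenced with paired reads of 151 bp, per the labels. Tools listed, with no order, in the submitters' processing notes are HISAT2 2.1, featureCounts 1.6.4, cutadapt 1.16.5, DESeq2 2.11.40.6 and bcl2fastq 2.19, with build mm10. Neither the tool behind the values nor any use of strand is given. The authors deposited FPKM, a unit read from the values, with no recorded scaling between libraries. Libraries summed to 561563 to 658595 FPKM, with 21334 to 23224 entries above 0. Counts and depth are not given, so precision rests on the spread of 3 libraries per group.

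Genes with at least 1 FPKM in 3 libraries were fitted on log2(FPKM + 1) by limma-trend (R 4.3.3, limma 3.58.1), with group as the only term and Benjamini-Hochberg adjustment over all tested genes. The fit was tested on simulated data that held no effect of the header code, so its calls under that effect were not tested. Single values used exact 2-sided permutation tests (scipy 1.17.1). Alternatives changed the pseudocount, filter, scaling, replicate block, header code and libraries. Deviations from group means correlated by 0.689, 0.452 and 0.363 between libraries of the same replicate number in the titles. The numbers were treated as pairs only in the replicate block, and the main fit was not paired. Crossed replicates 2 and 3 correlated by 0.362 and 0.459, so this pairing may only follow the header code. Named genes are the members, the other Ifitm genes, the 3 nearest genes of at least 1 FPKM on each side, up to 4 genes of smallest p per list, and the 3 of most similar pattern; other list and marker genes were chosen after their values were seen. A few genes that this rule names are not reported here. The members and lists were chosen with earlier results of these data known. Promoters are from RefSeq (all 4 members matched) and transcripts from GENCODE M21, aligned with Biopython 1.88.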

Additional observations from a re-analysis of the deposited data

How the results depend on the processing

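Ifitm3 kept its direction under all 20 alternatives and its call under 15. It was not called with no filter on low values (log2 change −0.85, limma adjusted p = 0.0866 over 27669 genes, a larger family of tests), nor without 4 of the single libraries (range over the 6 fits −0.91 to −0.76). The replicate block changed the call of none of the 4 members (Ifitm3 adjusted p = 0.00313). Ifitm6 was called in the libraries of header code 2 alone (0.29) and in the fits with the code as a term that leave only that comparison; over the 6 such fits without 1 library it changed by 0.11 to 0.29, and over those without the term by 0.09 to 0.32. Ifitm1 and Ifitm2 were called in none of 20, and the sign of Ifitm1 turned at sizes of at most 0.04.

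The count of 132 called genes was 36 with no filter, 200 with quantile normalization, 959 with the replicate block (429 higher, 530 lower), 1645 with the code as a term and 2173 in code 2 alone. It was 17 to 262 without 1 library, and with the code as a term 2174, 623 and 520 without CUMS replicates 1, 2 and 3 and 2169, 773 and 484 without control replicates 1, 2 and 3. Scaling to the same sum gave 65 higher and 101 lower, against 76 and 56, with a median log2 change over all genes of −0.036, and leaving out the haemoglobin genes from that sum gave 89 higher and 46 lower, with a median of 0.033. With no filter, the block, the code as a term and code 2 alone, the numbers called were 3, 15, 16 and 16 for interferon-stimulated genes, 0, 7, 9 and 10 for the signalling chain, 0, 2, 4 and 4 for membrane antiviral proteins, and 0, 1, 2 and 2 for IFITM partners. Without 1 library they were 4 to 10, 0 to 3, 0 to 2 and 0. The cause of these moves was not tested. The 6 differences between members kept their direction under all 8 alternatives each.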
